A study of Homo sapiens with 16 samples.

Results

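The transcriptional answer of senescent WI-38 cells to heat was read from 4 RNA-seq libraries of the 16 in the series. WI-38 is an established diploid fibroblast line from human lung, and such cells enter senescence when passaged long enough. The 2 senescent control and 2 senescent heat shock libraries came from cells at passage 36. Heat shock lasted 2 h at 44 °C (the degree sign is lost in the labels), and cells were lysed after it with no recovery period named. All groups, controls included, had been starved of serum for 24 h and returned to serum for 24 h, to align the cell cycle. The same design exists for young cells at passage 24 and for ribosome footprints (the stretches of mRNA that ribosomes cover). Each group has 2 libraries, and these 12 other libraries are set beside the senescent RNA response. The 4 young RNA libraries also enter the main fit, so the filter, the scaling and the estimate of spread behind the senescent calls rest on them too. The members are all genes of the RNA table, 23597, of which 13177 had counts high enough to be tested. The labels do not say whether same-numbered libraries came from separate cultures, so p-values measure the spread between libraries, which may be technical. Bulk libraries cannot tell fewer cells of a kind from less RNA per cell.

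When proteins unfold in heat, heat shock factor 1 (HSF1) is released from chaperones, forms trimers and binds heat shock elements, which are inverted repeats of the bases GAA and TTC upstream of chaperone genes. The chaperones it induces hold or refold clients: HSP70 proteins work in cycles with J-domain partners and exchange factors, small heat shock proteins hold unfolded chains, and ubiquitin marks those that are lost. Heat is also known to slow splicing and transcription of many other genes, and senescent fibroblasts are known for a secretory, matrix-rich state.

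The called rises of senescent cells reached 11.37 on the log2 scale (HSPA6), and the called falls with counts in both groups reached -2.73 (LCMT2). By edgeR's quasi-likelihood test without pairing, 48 transcripts rose (0.364% of those tested) and 28 fell (0.212%) at an adjusted p below 0.05. The replicate number was also fitted as a block, that is as 1 replicate effect shared by the 4 RNA groups, young and senescent. With it 351 rose (2.66%) and 477 fell (3.62%), and all 76 unpaired calls were among them. Scaled by library size alone instead of TMM, 41 rose and 53 fell in the unpaired test. Of the calls with the block 146 were rises and 212 were falls of at least 2-fold. The 48 rising transcripts took 1.72% and 1.57% of all counts in the control libraries and 7.32% and 8.00% in the heat shock libraries. The 28 falling ones went from 0.195% and 0.167% to 0.0477% and 0.0430%. In the text, levels are CPM, counts scaled to a common library size with TMM factors. Changes are log2 fold changes of heat over control with their standard error. Both come from the unpaired fit, also where the adjusted p beside them is with the block. Medians within a replicate are instead of log2 ratios of CPM plus 1, which draws changes at low levels towards 0. The words "rose" or "fell" refer to the unpaired test unless the block is named.

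**Figure D1:**
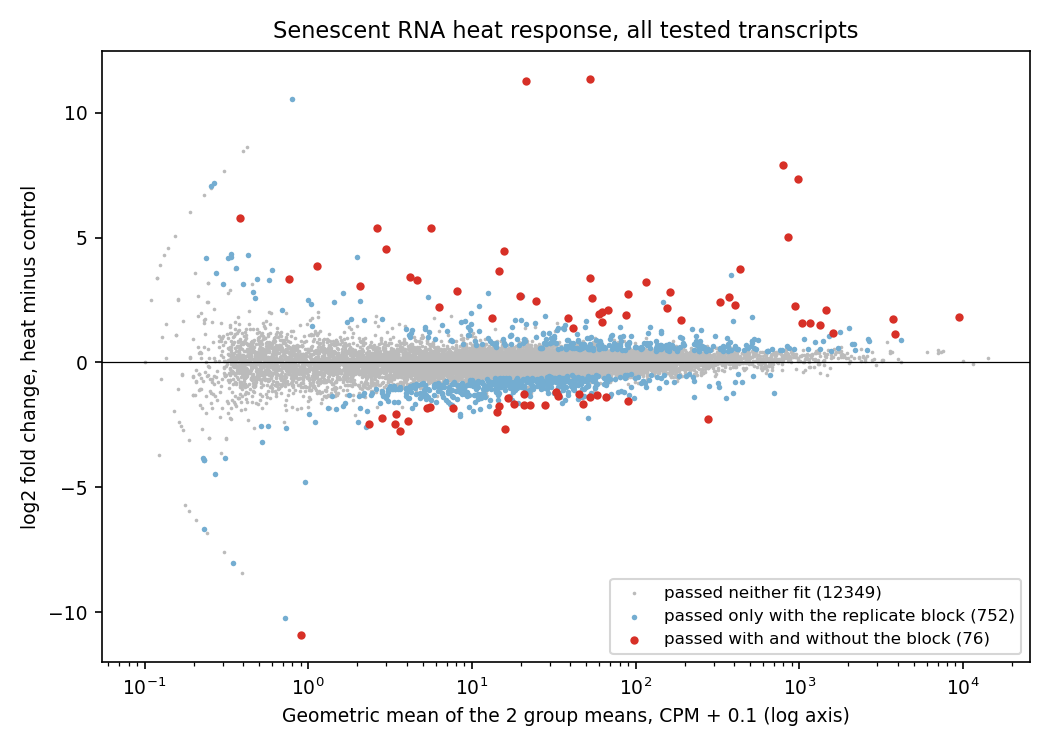
Each point is 1 of the 13177 tested transcripts, with the geometric mean of the control and heat levels in CPM plus 0.1 on a log axis and the log2 fold change (heat minus control) on the other. The 76 transcripts that passed both fits (red, HSPA6 at 11.37) mostly lie outside the 752 that passed only with the replicate block (blue), and 12349 passed neither (grey). Points at the far left with large changes have a group near 0 counts, where the fitted value is no bound.

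The senescent libraries held 26578703 to 28313902 counts assigned to genes. All 16 fibroblast markers were above 1 TPM (RSEM's abundance per length of transcript) in each of the 4 libraries, with summed levels of 11846 and 13179 TPM in control and 11670 and 17295 TPM in heat shock. PTPRC, CD3E and HLA-DRA of the immune list, CDH5, ERG and CLDN5 of the endothelial list and KRT5, ESRP1 and SFTPC of the epithelial list were at 0 in all 4. Other members of these lists were present. Above 1 TPM in all 4 were 4 of 11 epithelial markers, KRT19 highest at 93.6 to 107 TPM. So were 1 of 8 immune (CD68, 103 to 174 TPM) and 1 of 7 endothelial markers (TEK, 14.9 to 24.7 TPM). Of 5 smooth muscle markers 3 were, ACTA2 highest at 591 to 1281 TPM, and of 4 mesothelial ones 1 (CALB2, 2.45 to 6.54 TPM). Without control replicate 1 or 2 the unpaired fit kept 16 or 15 of the 76 calls, and without heat replicate 1 or 2 it kept 27 in each case, the lone library being assumed to vary like the other groups. In each of the 8 fits that leave out one RNA library 12 calls were kept, all of them rises: HSPA6, HSPA1A, HSPA1B, HSPA1L, DNAJB1, BAG3, DEDD2, IER5, DUSP2, RNA45S5, MTRNR2L1 and MTRNR2L10.

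Because many of the rising genes are known targets of HSF1, the 250 bases before their starts were read from RefSeq (GRCh38.p14) and searched on both strands for GAANNTTC, an inverted repeat of 2 units of a heat shock element. The repeat was in 11 of the 32 promoters available for rising transcripts (34.4%), 1 of 19 for falling ones and 425 of the 10484 for all tested transcripts (4.05%). Of all 27305 promoters in the table, 5.85% hold it. The repeat in the other order, TTCNNGAA, was in 4 of the 32 rising (12.5%), 3 of the 19 falling (15.8%) and 5.16% of all tested promoters, and in 6.72% of all promoters in the table. The 11 rising promoters with GAANNTTC belong to HSPA6, HSPA1A, HSPA1B, HSPA1L, HSPA8, HSPB1, HSPB8, SERPINH1, IER5, MICB and XIRP1. HSPA1A and HSPA1B are near-identical neighbours and HSPA1L lies in the same cluster, so the 11 are not all separate cases. The 1 falling transcript with GAANNTTC is SULT1A4, whose counts are treated with those of its copy below. The longer element TTCNNGAANNTTC, which always contains the shorter one, was in 3 rising promoters (HSPA6, HSPA8 and SERPINH1) and in 30 of all tested (0.286%). The 6 promoters below are shown because they cover the strongest rise, the inducible and constitutive HSP70 genes, a small heat shock protein, the collagen chaperone and an early response gene. Each runs 5′ to 3′ and ends at the base before the start, and capitals mark the GAA and TTC of each match.
HSPA6, chr1:161524290-161524539, plus strand: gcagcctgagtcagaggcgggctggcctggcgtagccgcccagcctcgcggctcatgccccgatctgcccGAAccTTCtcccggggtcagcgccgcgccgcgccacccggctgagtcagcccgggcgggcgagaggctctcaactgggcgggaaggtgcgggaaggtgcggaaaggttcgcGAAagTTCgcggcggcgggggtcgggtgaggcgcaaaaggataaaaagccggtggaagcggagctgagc
HSPA1A, chr6:31815293-31815542, plus strand: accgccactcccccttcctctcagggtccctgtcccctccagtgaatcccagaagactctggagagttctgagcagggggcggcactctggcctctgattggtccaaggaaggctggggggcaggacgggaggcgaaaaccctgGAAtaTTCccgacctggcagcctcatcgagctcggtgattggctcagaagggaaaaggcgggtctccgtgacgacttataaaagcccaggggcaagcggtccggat
HSPB1, chr7:76302423-76302672, plus strand: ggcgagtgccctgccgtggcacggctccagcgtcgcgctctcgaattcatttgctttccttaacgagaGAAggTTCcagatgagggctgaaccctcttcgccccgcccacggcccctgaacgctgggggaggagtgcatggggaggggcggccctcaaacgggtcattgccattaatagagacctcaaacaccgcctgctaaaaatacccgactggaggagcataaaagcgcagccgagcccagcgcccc
HSPA8, chr11:123062137-123062386, minus strand: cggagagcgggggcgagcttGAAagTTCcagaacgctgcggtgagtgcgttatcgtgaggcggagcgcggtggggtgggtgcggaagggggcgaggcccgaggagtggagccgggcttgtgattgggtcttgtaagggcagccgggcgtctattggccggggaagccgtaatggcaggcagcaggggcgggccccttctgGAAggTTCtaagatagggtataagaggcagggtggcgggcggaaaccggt
SERPINH1, chr11:75562003-75562252, plus strand: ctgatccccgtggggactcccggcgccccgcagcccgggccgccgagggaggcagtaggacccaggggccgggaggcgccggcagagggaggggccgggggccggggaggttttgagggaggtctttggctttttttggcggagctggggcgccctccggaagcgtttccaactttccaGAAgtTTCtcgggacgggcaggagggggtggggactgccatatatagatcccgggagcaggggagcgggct
IER5, chr1:181088450-181088699, plus strand: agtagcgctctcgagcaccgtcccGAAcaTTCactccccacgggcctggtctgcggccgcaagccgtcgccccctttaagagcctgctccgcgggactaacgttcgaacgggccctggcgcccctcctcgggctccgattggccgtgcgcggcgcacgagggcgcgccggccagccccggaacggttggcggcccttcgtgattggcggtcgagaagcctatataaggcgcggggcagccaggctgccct
In HSPA6 and HSPA8 the repeat occurs in 2 places, at 69 to 62 and 180 to 173 bases before the start of HSPA6, and at 50 to 43 and 230 to 223 bases before that of HSPA8. The single match lies 106 to 99 bases before the start of HSPA1A and 71 to 64 bases before that of SERPINH1. A match describes the letters of the window and was not measured as binding.

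HSP70 genes led the response. HSPA6, a strictly stress-induced HSP70, was at 0.975 and 0.976 CPM in the control libraries and at 2113 and 3089 CPM after heat, a 2655-fold rise (11.37 ± 0.34, adjusted p = 6.58e-05). Both heat libraries lay far above both controls. HSPA1A, the major inducible HSP70, went from 64.6 and 88.8 to 10406 and 14527 CPM (7.34 ± 0.26), and its near-identical neighbour HSPA1B from 42.5 and 60.2 to 9804 and 15035 CPM (7.92 ± 0.27). The coding sequences of this pair differ so little that reads may be divided between them arbitrarily. Their sum was 107 and 149 CPM in control and 20210 and 29562 CPM in heat shock, or 2.02% and 2.96% of scaled counts (7.60 ± 0.26, adjusted p = 1.49e-04). HSPA7, a pseudogene close in sequence to HSPA6, went from 0.325 and 0.434 to 687 and 1209 CPM, and reads of HSPA6 can reach it. Summed with HSPA6 it gave 11.35 ± 0.40.

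HSPA1L, the third HSP70 gene of the same cluster, rose from 1.20 and 1.27 to 13.8 and 12.5 CPM (3.41 ± 0.26). HSPA8, the constitutive HSP70 of the cytosol, was already abundant, at 2831 and 2390 CPM, and rose to 5939 and 5414 CPM (1.12 ± 0.17, adjusted p = 0.0415). HSPH1, the HSP110 that also exchanges nucleotide on HSP70, was at 141 and 86.2 CPM in control and at 1954 and 615 CPM in heat. Its groups did not overlap, yet the heat libraries lay far apart, and the change of 3.50 ± 0.57 passed only with the block (adjusted p = 0.0725, and 3.40e-04 with the block). HSPA4, another HSP110, passed only with the block too (0.65 ± 0.29, adjusted p = 0.608, and 0.0264 with the block). HSPA13, an HSP70-like protein of the endoplasmic reticulum, gave -0.49 ± 0.22 (adjusted p = 0.0495 with the block). Of the 13 HSP70 and HSP110 transcripts tested 6 rose and none fell (8 rose and 1 fell with the block), with a median log2 fold change of 1.34 against -0.01 over all tested transcripts. HSPA8 lost its unpaired call in each fit that left out a library, and HSPA7 in 2 of the 8.

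**Figure D2:**
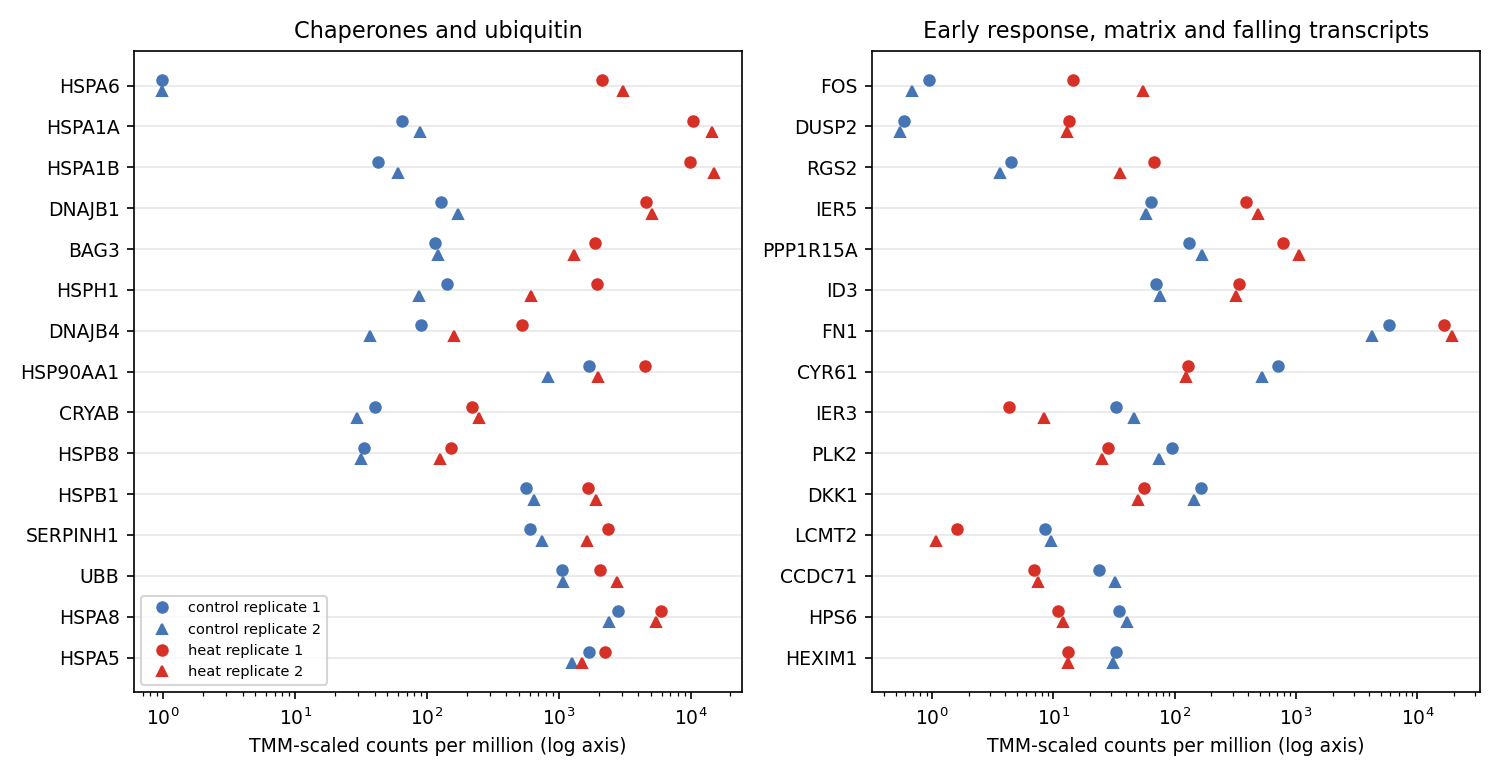
TMM-scaled CPM on a log axis for 15 chaperone and ubiquitin transcripts and 15 early response, matrix and falling transcripts, 1 row per gene and 1 point per senescent library (blue control, red heat; circles replicate 1, triangles replicate 2). Heat and control points lie far apart for HSPA6, HSPA1A and DNAJB1, heat points lie to the left for CYR61 and IER3, and for HSPA5 heat replicate 2 (1492 CPM) lies below control replicate 1 (1703 CPM).

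Among the J-domain partners of HSP70, DNAJB1 rose from 128 and 173 to 4613 and 5123 CPM (5.01 ± 0.22, adjusted p = 1.28e-04), close to the same level in both heat libraries. DNAJA4 was near the limit of detection in control, at 0.390 and 0.325 CPM (12 and 9 counts), and reached 23.3 and 6.98 CPM (5.39 ± 0.62, adjusted p = 0.0109). DNAJB4 (2.43 ± 0.62, adjusted p = 0.24, and 0.00117 with the block) and DNAJA1 (1.65 ± 0.48, adjusted p = 0.324, and 0.00491 with the block) rose only with the block. In DNAJB4 replicate 2 was lower than replicate 1 in control (37.3 against 89.7 CPM) and in heat (159 against 526 CPM), while within each pair heat was higher. Of 18 J-domain transcripts 2 rose and none fell (5 and none with the block), with a median of -0.04 against -0.01 over all tested transcripts. BAG3, the exchange factor that couples HSP70 to small heat shock proteins and to autophagy, went from 115 and 122 to 1863 and 1293 CPM (3.74 ± 0.20, adjusted p = 3.66e-04). It was the single riser among 10 exchange factors, joined with the block by BAG6 (0.78 ± 0.27, adjusted p = 0.00786 with the block).

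The HSP90 system had 1 unpaired call and 5 with the block. HSP90AA1, its inducible cytosolic form, was at 1680 and 831 CPM in control and 4519 and 1983 CPM in heat, so that heat replicate 2 exceeded control replicate 1 only narrowly (1.37 ± 0.52, adjusted p = 0.504, and 0.00132 with the block). HSP90AB1, the constitutive form, gave 1.05 ± 0.25 (adjusted p = 0.19, and 0.00239 with the block). FKBP4, an immunophilin that HSP90 uses in steroid receptor complexes, was the member of 18 that rose in the unpaired test, from 108 and 104 to 324 and 359 CPM (1.68 ± 0.19, adjusted p = 0.0109). With the block STIP1, the adaptor between HSP70 and HSP90, and AHSA1, the activator of its ATPase, were also called. The median of the 18 was 0.23, and -0.01 when libraries were scaled by their size alone.

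Of 7 small heat shock proteins tested, 3 rose with and without the block and none fell (median 0.45). CRYAB, which holds unfolded proteins and desmin-type filaments, went from 40.0 and 29.5 to 220 and 246 CPM (2.74 ± 0.24, adjusted p = 0.00318). HSPB8, the partner of BAG3, went from 33.5 and 31.7 to 152 and 126 CPM (2.10 ± 0.18, adjusted p = 0.00313). HSPB1 rose 2.97-fold from a high base, from 561 and 645 to 1659 and 1920 CPM (1.57 ± 0.20, adjusted p = 0.0171). SERPINH1, the collagen chaperone of the endoplasmic reticulum that is itself a known HSF1 target, rose from 599 and 745 to 2339 and 1636 CPM (1.56 ± 0.21, adjusted p = 0.023). Scaled for gene length, the order of levels in heat was HSPA1A (8113 and 9529 TPM), HSPA1B (7361 and 9499 TPM), HSPA8 (4570 and 3506 TPM), DNAJB1 (3829 and 3557 TPM) and HSPB1 (3633 and 3537 TPM), with overlap between the first 2 and among the last 3. In control HSPA8 was the highest of these at 2351 and 1905 TPM, followed by HSPB1 at 1325 and 1464 TPM.

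None of the 20 chaperones and disulfide isomerases of the endoplasmic reticulum passed either fit (median 0.17, and -0.06 by library size alone). HSPA5 (BiP), the main HSP70 there, was at 1703 and 1249 CPM in control and 2221 and 1492 CPM in heat, overlapping groups (0.33 ± 0.31, adjusted p = 0.875). In the unfolded protein response and degradation list none of 20 passed unpaired, and EDEM1, which hands misfolded glycoproteins to degradation, fell with the block. Among 14 mitochondrial chaperones and proteases none passed unpaired, and with the block HSPD1 (0.85 ± 0.52, adjusted p = 0.0275 with the block) rose and CLPX, a protease subunit, fell. None of 14 subunits of the TRiC and prefoldin folding machines and none of 32 proteasome subunits passed either fit (medians 0.02 and -0.08). HSF1 itself gave 0.48 ± 0.30 (adjusted p = 0.788, and 0.0552 with the block), and none of the 9 heat shock factors and regulators rose in either fit, while SIRT1, a deacetylase of HSF1, fell with the block (-0.67 ± 0.23, adjusted p = 0.0421 with the block).

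UBB, a polyubiquitin gene, rose from 1052 and 1080 to 2053 and 2775 CPM (1.18 ± 0.19, adjusted p = 0.042). Of 20 ubiquitin, ZFAND and VCP genes 4 rose and 1 fell with the block, the heat-induced proteasome adaptor ZFAND2A among the rises (median 0.11). In the integrated stress response list of 22, PPP1R15A, which recruits a phosphatase to restart translation, was the only transcript to pass unpaired, from 132 and 167 to 786 and 1051 CPM (2.62 ± 0.24, adjusted p = 0.00427). With the block 3 of the list rose and 2 fell. ATF4, the central transcription factor of that response, rose with the block (0.63 ± 0.20, adjusted p = 0.0238 with the block). So did SLC3A2 (1.20 ± 0.30, adjusted p = 0.00368 with the block). CHAC1, a glutathione-degrading enzyme that ATF4 normally induces, moved the other way with the block, from 64.3 and 156 to 18.0 and 28.8 CPM (-2.24 ± 0.44, adjusted p = 0.00138 with the block), and so did the cystine carrier SLC7A11. The list median was -0.03.

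Immediate early genes split in direction. FOS, an AP-1 subunit induced by many stresses, was at 0.943 and 0.687 CPM in control and at 14.5 and 54.8 CPM in heat (5.40 ± 0.58, adjusted p = 0.0126). DUSP2, a nuclear phosphatase of MAP kinases, went from 0.585 and 0.542 to 13.4 and 13.0 CPM (4.54 ± 0.34, adjusted p = 0.00191). IER5, known as a partner of HSF1, went from 63.9 and 58.2 to 385 and 484 CPM (2.83 ± 0.19, adjusted p = 0.00114), and RGS2, which dampens G protein signals, from 4.45 and 3.65 to 67.0 and 35.3 CPM (3.66 ± 0.40, adjusted p = 0.0117). IER3, a survival gene of the same early response family, fell from 32.8 and 46.2 to 4.28 and 8.35 CPM (-2.65 ± 0.40, adjusted p = 0.0416). In the list of 25 EGR, IER and KLF genes these 2 were the calls (5 rose and 5 fell with the block, median 0.03). With the block EGR1, NR4A1 and ARC were among the risers and KLF2, KLF6 and ZFP36 among the fallers. The AP-1 and ATF list of 13 held 1 riser, FOS, and 4 with the block. Of 18 MAP kinase phosphatases and feedback inhibitors DUSP2 rose in both fits, while DUSP6, DUSP10, DUSP14 and SPRY2 fell with the block.

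CYR61, a matrix-associated target of YAP and SRF, fell from 704 and 520 to 128 and 124 CPM, a 4.85-fold drop (-2.28 ± 0.21, adjusted p = 0.00427). CTGF, its relative, gave 1298 and 856 against 451 and 474 CPM (-1.22 ± 0.22, adjusted p = 0.0759, and 0.00986 with the block). CYR61 was the 1 call of 19 YAP and SRF targets (3 fell with the block, median -0.19). DKK1, a secreted WNT inhibitor, fell from 163 and 143 to 55.5 and 49.4 CPM (-1.54 ± 0.20, adjusted p = 0.0205). NEDD9, a scaffold of focal adhesions, fell from 52.9 and 47.0 to 17.8 and 13.3 CPM (-1.68 ± 0.24, adjusted p = 0.0305). Against these, ID3, a BMP-induced inhibitor of basic helix-loop-helix factors, rose from 70.4 and 76.2 to 340 and 318 CPM (2.17 ± 0.27, adjusted p = 0.0171). None of the 28 falls was called in all 8 fits that leave out a library; CYR61 was called in 6.

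Most targets of p53 and interferon had log2 fold changes below 0. Among 27 p53 targets PLK2, a polo-like kinase, fell from 95.6 and 74.1 to 28.1 and 25 CPM (-1.68 ± 0.22, adjusted p = 0.0215). With the block 7 fell, among them MDM2, the ubiquitin ligase of p53 (-1.18 ± 0.41, adjusted p = 0.0138 with the block), BBC3 and TP53INP1, and 1 rose, GADD45G. The median was -0.44, with 22 of 27 below 0, against 6743 of all 13177 tested transcripts. Of 22 interferon-stimulated genes none passed unpaired and 5 fell with the block (GBP1, IRF1, IFIT1, IFIT3 and IFIT5), with a median of -0.33 and 20 of 22 below 0. The inflammatory secretome, a hallmark of senescence, had no unpaired call among 15 members, and LIF and NFKBIA fell with the block. Both medians kept their sign within each replicate (p53 targets -0.43 and -0.47, interferon-stimulated genes -0.18 and -0.37). In young cells they were -0.44 and -0.30. That of the 35 replication and mitosis genes did not (-0.12 in replicate 1 and 0.56 in replicate 2).

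Among matrix transcripts 1 adhesive glycoprotein and the collagen chaperone rose. FN1 (fibronectin) rose from 5812 and 4243 to 16607 and 19344 CPM (1.84 ± 0.26, adjusted p = 0.0293), the 1 call of 24 adhesive and elastic glycoproteins. LRP1, the large endocytic receptor that clears matrix proteins and proteases, rose from 654 and 929 to 1938 and 2544 CPM (1.50 ± 0.23, adjusted p = 0.042). Like HSPA8, it is not among the calls kept when a library is left out. None of 19 collagens was called unpaired, but 18 had a log2 fold change above 0 (median 0.47), against 6433 of all 13177 tested transcripts. With the block 5 collagens rose, among them COL6A1 (0.87 ± 0.41, adjusted p = 0.00519 with the block) and COL5A1 (1.00 ± 0.37, adjusted p = 0.0215 with the block). Of the 55 cytosolic ribosomal proteins 54 were above 0, with a median of 0.29, none called unpaired and 6 rising with the block, RPLP0 (0.51 ± 0.17, adjusted p = 0.0309 with the block) among them. The median of ribosomal proteins was 0.12 within replicate 1 and 0.42 within replicate 2, and that of collagens 0.24 and 0.58. Scaled by library size alone, the median over all transcripts was -0.23, and that of ribosomal proteins 0.06 and of collagens 0.21, so shifts of this size are relative to the bulk of transcripts.

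Some of the calls rest on features whose reads are shared with other loci. RNA45S5, the ribosomal RNA precursor, rose from 2.96 and 3.61 to 63.6 and 81.9 CPM (4.47 ± 0.27, adjusted p = 6.96e-04). Its level also depends on how ribosomal RNA was removed, and the labels do not say whether the kit selected polyadenylated RNA. The MTRNR2L genes are nuclear copies of mitochondrial large ribosomal RNA, so their reads can come from mitochondria. Of 6 such rows 5 rose, and their sum went from 1154 and 1799 to 5952 and 7850 CPM (2.22 ± 0.28, adjusted p = 0.02). SULT1A3 and SULT1A4, identical sulfotransferase genes, traded places: SULT1A4 had 302 and 174 counts in control and 0 in both heat libraries, and SULT1A3 had 0 in control and 178 and 141 in heat. Their sum was 9.82 and 6.29 CPM in control and 6.68 and 5.86 CPM in heat, with no change called (-0.36 ± 0.41, adjusted p = 0.897). With these copies summed 42 transcripts rose and 24 fell. LCN10 is given by its counts, 1 and 0 in control and 29 and 30 in heat. SNORA109, a small nucleolar RNA, rose from 6.11 and 8.10 to 20.3 and 28.8 CPM (1.79 ± 0.28, adjusted p = 0.0452), while its class of 34 had a fitted median of -0.67. With 1 added to CPM the class median was -0.41 within replicate 1 and 0.05 within replicate 2.

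Transcripts of genes with few exons made up a larger share of the rises and of the falls than of all tested transcripts. Exon numbers were taken from the GENCODE 29 transcript with the longest coding sequence, which could be matched for 99.1% of tested transcripts. Of the 28 falling transcripts 13 (46.4%) have 1 or 2 exons and of 46 rising ones 18 (39.1%), compared with 7.64% of all tested. With the block the shares were 12.3% of the rises and 28% of the falls. The median number of exons was then 10 for the rises and 5 for the falls, against 9 for all tested. Among the 7 falling transcripts with 1 exon are LCMT2, DDX28, HPS6, HEXIM1, TBCC and FOXL1. LCMT2, a tRNA-modifying methyltransferase, fell from 8.45 and 9.47 to 1.61 and 1.08 CPM (-2.73 ± 0.28, adjusted p = 0.00727). HPS6, a subunit of a lysosome biogenesis complex, fell from 34.8 and 40.4 to 10.9 and 12.1 CPM (-1.71 ± 0.22, adjusted p = 0.0199). HEXIM1, the inhibitor of the elongation factor P-TEFb, fell from 32.9 and 31.2 to 13.2 and 13.3 CPM (-1.28 ± 0.20, adjusted p = 0.0416). Among those with 2 exons, CCDC71 went from 23.8 and 32.3 to 6.86 and 7.40 CPM (-1.98 ± 0.24) and SNRNP35, of the minor spliceosome, from 14.7 and 13.7 to 3.83 and 4.11 CPM (-1.84 ± 0.23). Among the rising transcripts with 1 exon are HSPA6, HSPA7, HSPA1A, HSPA1B, IER5, GEMIN8P4 and 5 MTRNR2L copies. Reads of the HSP70 and MTRNR2L copies among these can be shared, as given above, so the copies are not separate cases.

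Across all transcripts the median change ran from -0.29 at 1 exon (n = 397) and -0.22 at 2 (n = 601) to -0.01 at 11 to 20 and 0.13 above 20 (n = 1779). With the block 14.6% of transcripts with 1 exon fell and 5.54% rose, against 1.46% and 5.96% of those with over 20 exons. The medians of 1-exon transcripts were -0.14 and -0.16 within the 2 replicates, and those of over 20 exons 0.18 and 0.04. These are ratios of CPM plus 1, so their size cannot be set against the fitted medians or between classes of unlike level. In young cells the fitted medians were -0.16 at 1 exon and 0.05 above 20. These classes also differ in level, with a median of 3.72 CPM at 1 exon and 29.3 CPM above 20, and in length, 2052 against 5575 bases, and the part of these in the pattern was not tested. Base composition moved with the response as well: the transcripts that rose with the block had a median GC content of 57.2% and those that fell 48.1%, against 49.3% overall. Replicate 2 differed from replicate 1 along GC content too. The Spearman coefficient across the 13057 tested genes matched to GENCODE, which share the same libraries, was 0.63 in control and 0.55 in heat. Between GC content and heat minus control it was 0.29. With a smooth GC trend removed from each library, a setting chosen after seeing the data, 82 transcripts rose and 122 fell unpaired, 74 of the 76 calls were kept, and the medians by exon class ran from -0.31 to 0.14.

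**Figure D3:**
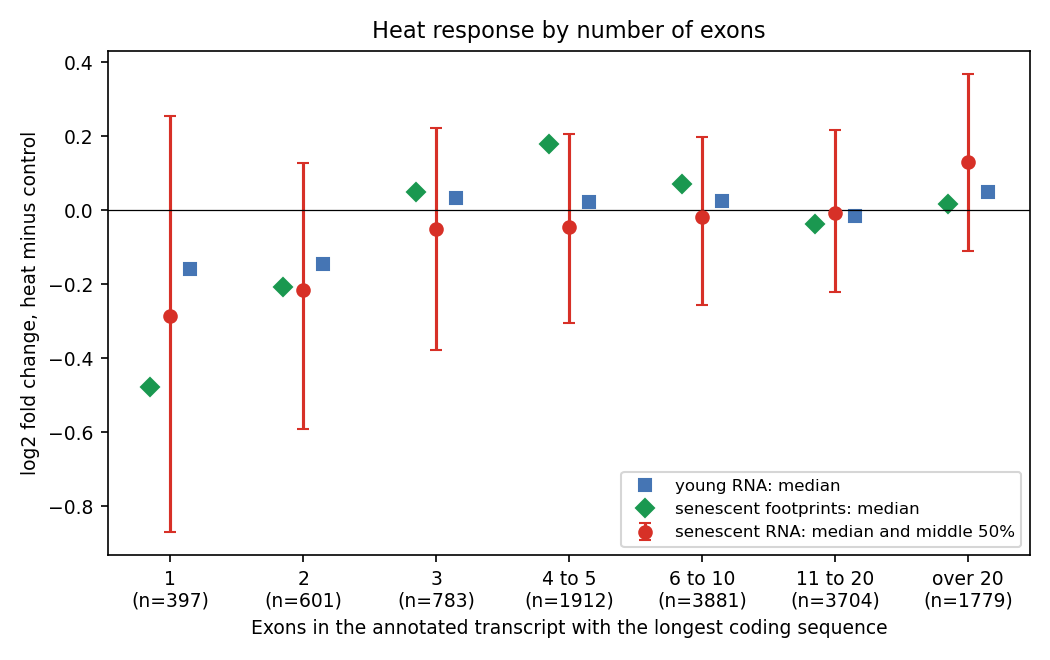
Median log2 fold change of heat over control by exon class, in senescent RNA with the middle 50% of transcripts as bars (red), young RNA (blue squares) and senescent footprints (green diamonds). Senescent RNA rises from -0.29 at 1 exon to 0.13 above 20 exons, and the bars of all classes cross 0.

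Splicing regulators were called in both directions with the block. CLK1 and CLK4, kinases of SR proteins whose own introns are retained until stress, rose with the block (1.37 ± 0.64, adjusted p = 0.00239 with the block, and 1.65 ± 0.51, adjusted p = 0.003 with the block), while SRSF5 and SRSF2 fell with it. CLK1 was at 30.4 and 11.2 CPM in control and 74.2 and 33.2 CPM in heat, so that replicate 2 after heat barely exceeded replicate 1 before it. None of the 19 kinases and SR proteins passed unpaired. Zinc finger genes named ZNF, 471 tested, had a median of -0.18, with 1 rise (ZNF473) and 1 fall (ZNF155) unpaired and 5 and 26 with the block. That median was -0.01 within replicate 1 and -0.30 within replicate 2.

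Footprints of senescent cells were sequenced as separate libraries, and the labels do not say whether they came from the same lysates. Of 11288 transcripts tested there, 352 rose (3.12%) and 591 fell (5.24%). Of the 48 rising transcripts 36 had testable footprints, of which 30 also rose in footprints and none fell. Of the 28 falling ones 27 had, of which 11 fell and none rose. HSPA1A footprints changed by 6.73 ± 0.39, DNAJB1 by 5.04 ± 0.29, BAG3 by 3.71 ± 0.25 and CYR61 by -2.14 ± 0.26. PPP1R15A gave 4.06 ± 0.41 in footprints against 2.62 ± 0.24 in RNA, and ATF4, whose translation is known to be freed under stress, 3.76 ± 0.31 (adjusted p = 9.83e-04) against 0.63 ± 0.20. Differences between footprint and RNA changes were not tested here.

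Calls in RNA with the block and unpaired calls in footprints also differed in direction. Of the 305 transcripts that rose with the block and had footprints, the unpaired calls included, 90 rose and 33 fell in footprints, and of 454 falling ones 69 fell and 3 rose. COL5A1, a fibrillar collagen chain, rose in RNA with the block, from 187 and 323 to 354 and 665 CPM, while its footprints fell from 184 and 201 to 50.9 and 27.0 CPM (-2.30 ± 0.28, adjusted p = 0.00418). NOTCH3, a receptor, showed the same pair of directions (RNA 0.73 ± 0.31, adjusted p = 0.0149 with the block; footprints -1.91 ± 0.29, adjusted p = 0.0108). In footprints 6 of 19 collagens and 6 of 55 ribosomal proteins fell and none rose. LRP1, which rose in RNA, was at 975 and 805 CPM in control footprints and 842 and 783 CPM in heat (-0.13 ± 0.19, adjusted p = 0.685).

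Most transcripts that rose in senescent cells also rose in young cells. Young RNA had 88 rises (0.668%) and 62 falls (0.471%). Of these 45 rises and 22 falls were shared, 93.8% and 78.6% of the senescent calls and 51.1% and 35.5% of the young ones, and none went the opposite way. The difference of responses, senescent minus young, was below 0 for 34 of the 48 rising transcripts. FKBP4 rose by 1.68 ± 0.19 in senescent and 3.18 ± 0.19 in young cells, BAG3 by 3.74 ± 0.20 and 5.11 ± 0.20, RNA45S5 by 4.47 ± 0.27 and 6.32 ± 0.28. The difference had the other sign for DUSP2, at 4.54 ± 0.34 in senescent and 2.32 ± 0.32 in young cells, and CYR61 and DKK1 had larger values among the falls (-2.28 ± 0.21 against -1.28 ± 0.21, and -1.54 ± 0.20 against -0.63 ± 0.20). HSPA6 gave nearby values (11.37 ± 0.34 and 11.45 ± 0.33, difference -0.07 ± 0.47). HSPA5 gave 0.33 ± 0.31 in senescent and 1.78 ± 0.31 in young cells (difference -1.45 ± 0.43, unadjusted p = 0.0102).

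No difference passed edgeR's test after adjustment (0 of 13177, with 119 at an unadjusted p below 0.05), and with the block 1 did (0.00759%), the divided SULT1A4 (683 at an unadjusted p below 0.05). DESeq2 called 3, and 32 with the block. The contrasts named above, chosen by the size of their p, are therefore given as values: the smallest unadjusted p without the block among the called transcripts other than SULT1A4 was 5.22e-04, for FKBP4.

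**Figure D4:**
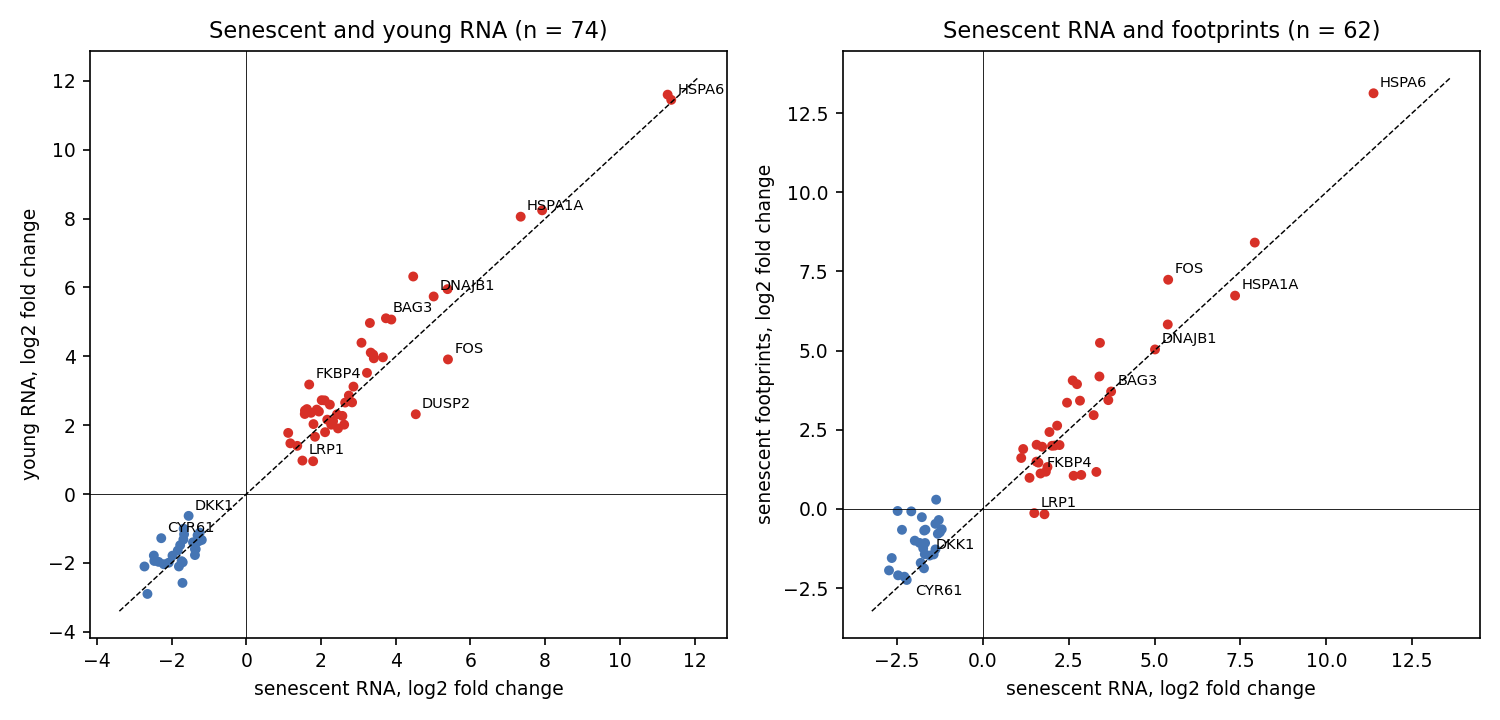
Log2 fold changes of the called transcripts in senescent RNA against those in young RNA (left, n = 74) and in senescent footprints (right, n = 62), red for rises and blue for falls, with the dashed line of equal change. BAG3 (3.74 and 5.11) and FKBP4 (1.68 and 3.18) lie above the line on the left, DUSP2 (4.54 and 2.32) below it, and LRP1 lies near 0 in footprints.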

How the data were processed

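RNA-seq of 4 senescent WI-38 libraries, with 4 young RNA and 8 footprint libraries beside them, was taken from the tables of expected counts per gene that the authors deposited, whole numbers in the files. TPM (abundance per length of transcript) deposited by the authors were used for levels compared between genes and for 1 alternative. STAR, RSEM, Bowtie2 and the build hg19 are named per the submitters' processing notes. Their roles and versions were not given in the sources used here. The kit was TruSeq RNA, per the labels' protocols.

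The main test was that of edgeR 4.0.16 (glmQLFit and glmQLFTest, in R 4.3.3) after filterByExpr and TMM, over all 8 RNA libraries with 1 mean per group and 4 residual degrees of freedom. Benjamini-Hochberg adjustment ran over 13177 transcripts, with calls below 0.05. Footprints were fitted separately. Standard errors are Wald errors from the moderated dispersion of the unpaired fit.

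Same-numbered libraries deviated together from their group means: across genes the correlation was 0.527 between senescent control and heat and 0.481 to 0.658 over the 6 pairs of RNA groups. The replicate number was therefore also fitted as a block (3 residual degrees of freedom), and its value stands beside a result where it changes the call.

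Exon number, length and GC content came from GENCODE 29 and promoters from RefSeq, both joined by symbol, since the tables use another build. The gene lists, the named genes and the alternatives were chosen with earlier results of these data known. The rule for named genes takes the 15 largest rises and 15 largest falls with at least 10 CPM in a senescent group, up to 4 called members of each list (2 abundant ones where none was called), a panel of chaperones and senescence markers, the strongest calls of the block alone, and the strongest differences from young cells. Not all genes that it picks are named, some results are not reported here, and those named beyond it were chosen after their values were seen. Transcripts with 3 or fewer counts in a group are given by their counts. Alternatives were another scaling, no filter, DESeq2 1.42.0, limma 3.58.1 on log2(TPM + 1), only the senescent libraries, and each library left out. Removing the GC trend and summing near-identical copies were added after seeing the data.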

Additional observations from a re-analysis of the deposited data

Results flagged for a closer look

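The heat response of SULT1A4 differed between senescent and young cells with the replicate block (adjusted p = 0.00306, edgeR's quasi-likelihood test). Its counts moved to its identical copy SULT1A3 in the senescent heat libraries, and the sum of the copies showed no called change or difference.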

How the results depend on the processing

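No named transcript changed sign under any alternative run. In RNA, the 48 rises and 28 falls of the unpaired test became 351 and 477 with the replicate block, 125 and 157 with DESeq2, 770 and 769 with DESeq2 and the block, 90 and 73 with no filter, 65 and 63 with limma on log2(TPM + 1), and 41 and 53 by library size alone. With only the 4 senescent libraries they were 48 and 7, or 203 and 283 with the block. With the GC trend removed they were 82 and 122, or 259 and 437 with the block, and with copies summed 42 and 24, or 339 and 473 with the block. Leaving out one library gave 13 to 46 rises and 0 to 19 falls, the 0 falls without senescent heat replicate 2. The cause of these shifts was not tested. The difference from young cells gave 0 calls, 1 with the block, 1 with the GC trend removed and the block, 2 with no filter, 2 with limma, 3 with DESeq2 and 32 with DESeq2 and the block, and 0 without each single library. Footprint rises and falls, 352 and 591, became 675 and 992 with the block, 597 and 896 with DESeq2, 816 and 1055 with DESeq2 and the block, 173 and 1180 by library size alone, 488 and 1040 with no filter, 111 and 887 with limma, 96 and 174 with only the senescent libraries, and 656 and 1090 with these and the block. Leaving out one library gave 84 to 649 rises and 130 to 1285 falls. Of the 76 calls 40 passed in all 11 other alternatives that keep every gene as a row of its own. With 2 libraries per group the unpaired fit has 4 residual degrees of freedom, and the block leaves 3.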
